A study of Homo sapiens with 2 samples.

Results

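The genes TGFB1, BMP7, SMAD6, SMAD7, SKI, SKIL, PMEPA1, ID1, ID2 and ID3 carry or restrain signals of the TGF-beta family. All 10 were found by symbol in the deposited tables, among 47145 symbols left once short RNAs were set aside. Rows of the same symbol were summed, which concerned 2 of the 10, and 0 of their rows were joined with another symbol. Total RNA came from C4-2B, an androgen-independent human prostate cancer line descended from LNCaP that is used as a model of castration-resistant disease in bone. The cells had received 2.5 µM MA4-022-1, a compound labelled as inhibiting both BET proteins and kinases, or the vehicle DMSO. Each group held 1 library, so differences between them lack replication and carry no p-value. The sources used here do not give how long the cells were exposed.

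TGF-beta and activin ligands bind paired type I and type II receptor kinases, which phosphorylate SMAD2 and SMAD3, whereas BMP ligands act mainly through SMAD1, SMAD5 and SMAD9. Both kinds of SMAD join SMAD4 and enter the nucleus, where the BMP branch switches on the ID genes and both branches switch on their own inhibitors. LNCaP, the parent of this line, is known for a weak response to TGF-beta and a low level of the type II receptor.

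Values were RPKM per gene. From the size of a single read in low values, the totals behind them were estimated at 19904000 reads with MA4-022-1 and 27131000 reads with DMSO. A log2 ratio below is that of RPKM + 1 with MA4-022-1 to RPKM + 1 with DMSO, which understates the fold of a gene of low level. Intervals are 95% counting intervals of the plain RPKM ratio, computed from reads estimated with an annotated transcript length, and they cover counting error only. Genes that reached 1 RPKM in either library are called expressed. The line showed its prostate identity in both libraries, where all 9 luminal markers stood at 31.7 RPKM or more with MA4-022-1 and at 34.8 RPKM or more with DMSO, KLK2 and KLK3 sharing 1 joined row. Of 10 markers of fibroblasts, vessels, leukocytes and muscle, 7 lay under 1 RPKM in both libraries, and of these PECAM1 and DES were listed at 0 in both. MYH11 was at 1.22 RPKM with MA4-022-1 and 0.0970 RPKM with DMSO. The others were COL1A1, given with its list further on, and CD68, which has no row of its own and shares one with EIF4A1 and SENP3. In bulk RNA, fewer cells that express a gene and less RNA per cell cannot be told apart.

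Of the 10 genes, 9 were expressed and ID1 stayed under 1 RPKM. SKI and ID2 were at least 2-fold higher with MA4-022-1, TGFB1 and PMEPA1 were at least 2-fold lower, and 5 lay within 2-fold. For all 15418 expressed genes, these shares were 7.74% higher and 9.57% lower by the same threshold. Among 9826 expressed protein-coding genes, the class to which all 10 belong, the shares were 4.12% and 9.51%. The call of TGFB1 rests on a row placed among genes of the opposite strand, and on rows of the gene's own strand 1 gene, PMEPA1, was at least 2-fold lower. With a pseudocount of 0.1 in place of 1, 5 were. With 9 genes, 2 in each direction is too few to set the list apart from these shares. The median log2 ratio of the 9 was -0.57, that of all expressed genes -0.02 and that of expressed protein-coding genes -0.10. The median of the members was not stable in direction: it was 0.21 over the 5 that pass a filter of 5 RPKM, and -1.09 with a pseudocount of 0.1.

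**Figure D1:**
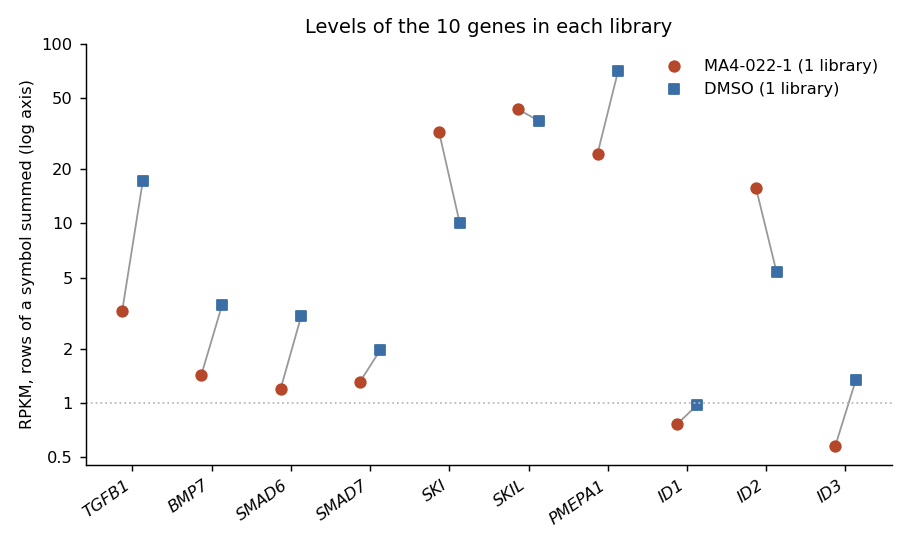
Level of each gene in the MA4-022-1 library (circles, left) and the DMSO library (squares, right), in RPKM on a log axis, 1 library per group. SKI, SKIL and ID2 stood higher with MA4-022-1 and the other 7 stood lower, with ID1 under the dotted line at 1 RPKM in both libraries.

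Upstream sequences are shown for SMAD6, the ID genes and SKIL, which have a single start site in the RefSeq table, where 8 of the 10 genes have an entry. Each sequence is the 250 bases before the start site on GRCh38.p14, from RefSeq, printed 5′ to 3′ on the strand of the gene. Capitals mark GTCTAGAC, a palindrome that SMAD proteins can bind, CAGAC on either strand, a shorter SMAD motif, and GGCGCC, a GC-rich SMAD motif.
SMAD6, chr15:66701986-66702235, plus strand: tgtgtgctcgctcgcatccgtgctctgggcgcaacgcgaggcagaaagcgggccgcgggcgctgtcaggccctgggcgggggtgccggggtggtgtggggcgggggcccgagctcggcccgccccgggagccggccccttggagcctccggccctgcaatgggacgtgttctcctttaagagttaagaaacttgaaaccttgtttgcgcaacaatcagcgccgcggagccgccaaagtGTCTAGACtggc
ID1, chr20:31605039-31605288, plus strand: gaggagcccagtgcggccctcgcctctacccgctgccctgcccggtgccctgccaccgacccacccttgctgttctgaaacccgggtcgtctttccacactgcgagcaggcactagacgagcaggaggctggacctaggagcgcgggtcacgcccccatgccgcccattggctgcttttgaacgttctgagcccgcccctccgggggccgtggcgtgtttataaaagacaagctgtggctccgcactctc
ID2, chr2:8681806-8682055, plus strand: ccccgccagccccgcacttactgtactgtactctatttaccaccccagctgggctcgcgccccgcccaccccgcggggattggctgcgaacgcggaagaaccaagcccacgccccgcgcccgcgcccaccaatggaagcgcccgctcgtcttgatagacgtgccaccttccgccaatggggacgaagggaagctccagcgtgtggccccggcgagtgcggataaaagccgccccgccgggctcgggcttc
ID3, chr1:23559502-23559751, minus strand: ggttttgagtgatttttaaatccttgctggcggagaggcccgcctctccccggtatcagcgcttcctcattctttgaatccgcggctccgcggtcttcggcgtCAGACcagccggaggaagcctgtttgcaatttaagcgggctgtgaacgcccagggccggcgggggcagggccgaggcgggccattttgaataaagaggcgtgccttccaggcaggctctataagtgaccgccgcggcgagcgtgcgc
SKIL, chr3:170357465-170357714, plus strand: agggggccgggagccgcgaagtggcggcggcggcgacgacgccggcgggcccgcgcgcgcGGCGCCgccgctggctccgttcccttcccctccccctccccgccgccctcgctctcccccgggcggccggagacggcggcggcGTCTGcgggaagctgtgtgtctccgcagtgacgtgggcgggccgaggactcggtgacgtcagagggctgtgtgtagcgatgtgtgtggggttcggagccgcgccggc

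The SMAD6 sequence holds GTCTAGAC with its first base 12 bases before the start site, and 0.182% of 35116 such sequences in the table hold those letters. ID3 holds CAGAC, in capitals, 147 bases before its start, a motif present in 38.0% of all sequences. SKIL holds CAGAC on the opposite strand, printed as GTCTG, 107 bases before its start. It also holds GGCGCC, 190 bases before its start, a motif present in 16.4% of all sequences. ID1 and ID2 hold none of the 3 motifs in this window, and neither does TGFB1, whose sequence is not shown. A match is a description of letters and is not evidence of binding.

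Among the ligands, TGFB1, the secreted growth factor that names the family, had 3.26 RPKM with MA4-022-1 and 17.2 RPKM with DMSO when its 2 rows were summed. That is a log2 ratio of -2.09, or 4.27-fold lower (locus on hg19 chromosome 19, 41768400 to 41930910, which also holds HNRNPUL1, CCDC97, B9D2 and EXOSC5). The sum rested on a row at 1.43 RPKM with MA4-022-1 and 13.7 RPKM with DMSO. Both of its values fall on the steps of 11 other rows, 5 of which are lone features of 209 nt. In the smallest whole numbers they are 1 read with MA4-022-1 and 13 reads with DMSO, though multiples of that pair would give the same values. At 209 nt the depth fit gives 0.228 reads with MA4-022-1 and 2.97 reads with DMSO. As 0.228 is less than 1 read, that length gives no usable read number here. This row stands among plus-strand genes, whereas TGFB1 lies on the minus strand, and whether reads were counted by strand is not stated in the sources used here.

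The row that stands among minus-strand genes was at 1.82 RPKM with MA4-022-1 and 3.50 RPKM with DMSO, a log2 ratio of -0.67 and within 2-fold. Its values match 13 reads with MA4-022-1 and 34 reads with DMSO on a feature of 559 nt, the length of an annotated TGFB1 transcript in GENCODE. The RPKM ratio was 0.521 with a counting interval from 0.252 to 1.01, so a difference was not detectable with that length. Multiples of these reads on a longer transcript would give the same values and a narrower interval. The call of TGFB1 as at least 2-fold lower therefore depended on the row among plus-strand genes. Its neighbours in the locus lay within 2-fold, with HNRNPUL1 at 11.4 RPKM with MA4-022-1 against 11.8 RPKM with DMSO and EXOSC5 at 8.14 RPKM against 13.2 RPKM.

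BMP7, a bone morphogenetic protein, had 1.44 RPKM with MA4-022-1 and 3.50 RPKM with DMSO, a log2 ratio of -0.88. The plain RPKM ratio was 0.412, with a counting interval from 0.290 to 0.577, from about 46 reads with MA4-022-1 and 152 reads with DMSO. BMP7 (chromosome 20, 55743803 to 55841685) was thus lower beyond counting error, although it stayed within 2-fold on the scale of RPKM + 1.

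**Figure D2:**
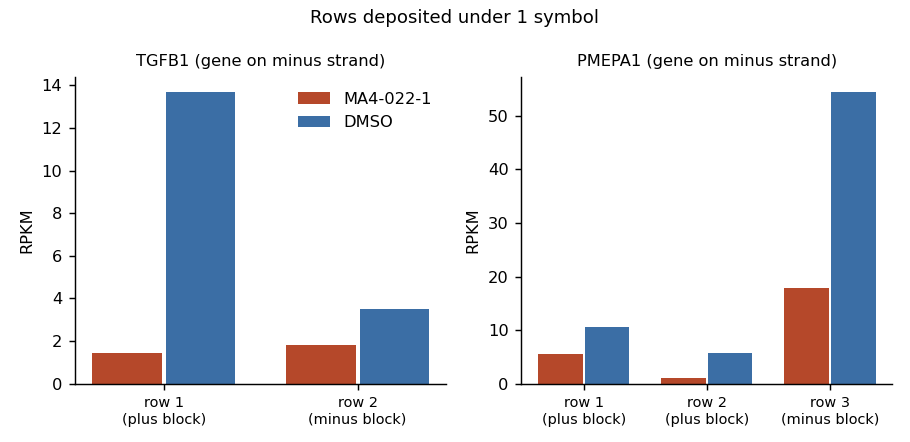
RPKM of each row deposited under TGFB1 (left) and PMEPA1 (right), MA4-022-1 beside DMSO, with the strand block of the tables in which the row stands. The TGFB1 row in the plus block is at 1.43 RPKM with MA4-022-1 and 13.7 RPKM with DMSO, whereas the PMEPA1 row in the minus block holds most of that gene's level in both libraries.

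The inhibitory SMADs compete with the activating SMADs at the receptor, SMAD6 mainly in the BMP branch and SMAD7 in both. SMAD6 (chromosome 15, 66994565 to 67074338) had 1.20 RPKM with MA4-022-1 and 3.05 RPKM with DMSO, a log2 ratio of -0.88. Its RPKM ratio was 0.392, with a counting interval from 0.276 to 0.540, from about 48 and 168 reads. SMAD7 (chromosome 18, 46446222 to 46477081) had 1.31 RPKM with MA4-022-1 and 1.98 RPKM with DMSO, a log2 ratio of -0.36. About 27 and 54 reads, estimated with a transcript length of 1215 nt, gave a ratio of 0.665 with an interval from 0.413 to 1.10. For SMAD7 a difference was thus not detectable with that length. A longer transcript would give more reads and a narrower interval. Of the inhibitory SMADs, both low in level, only SMAD6, taken at 2233 nt, was lower beyond counting error as estimated with these lengths.

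SKI and SKIL bind activated SMADs and hold their target genes silent. SKI (chromosome 1, 2160133 to 2241558) stood at 32.3 RPKM with MA4-022-1 and 10.1 RPKM with DMSO, a log2 ratio of 1.59, or 3.01-fold higher. The RPKM ratio was 3.21, with a counting interval from 3.02 to 3.41, from about 3480 reads with MA4-022-1 and 1478 reads with DMSO. Of the expressed protein-coding genes, 0.977% had a log2 ratio at or above that of SKI. SKIL (chromosome 3, 170074522 to 170114623), also called SnoN and itself a target of TGF-beta, stood at 43.2 RPKM with MA4-022-1 and 37.3 RPKM with DMSO, a log2 ratio of 0.21. Its RPKM ratio of 1.16 had an interval from 1.09 to 1.23. The corepressors thus differed, and SKI reached 0.748 of the level of SKIL, in RPKM, with MA4-022-1 and 0.270 of it with DMSO.

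PMEPA1, a membrane protein that holds back activating SMADs and is induced by androgen in prostate cells, was the most abundant of the 10 genes with DMSO. Its 3 rows summed to 24.5 RPKM with MA4-022-1 and 70.7 RPKM with DMSO, a log2 ratio of -1.49, or 2.82-fold lower (chromosome 20, 56223345 to 56286915). The row among minus-strand genes, the strand of PMEPA1, was at 17.9 RPKM with MA4-022-1 and 54.5 RPKM with DMSO. Its RPKM ratio was 0.328, with a counting interval from 0.310 to 0.347, from about 1537 reads with MA4-022-1 and 6379 reads with DMSO. The rows among plus-strand genes were lower as well, at 5.49 RPKM with MA4-022-1 against 10.6 RPKM with DMSO and at 1.10 RPKM against 5.65 RPKM. The last of these has values whose smallest whole numbers are 1 read with MA4-022-1 and 7 reads with DMSO, steps shared with 3 other rows. Multiples of that pair would give the same values. At 337 nt, the length of 2 lone features on these steps, they come to 2.98 reads with MA4-022-1 and 20.8 reads with DMSO. Most of the level, and of the difference, lay in the row among minus-strand genes. Of the expressed protein-coding genes, 3.45% had a ratio at or below that of the summed rows.

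ID proteins lack a DNA-binding region and hold basic helix-loop-helix factors away from DNA. ID2 (chromosome 2, 8806765 to 8824583) stood at 15.8 RPKM with MA4-022-1 and 5.37 RPKM with DMSO, a log2 ratio of 1.40, or 2.63-fold higher. The RPKM ratio was 2.94, with a counting interval from 2.44 to 3.54, from about 364 and 169 reads. Of the expressed protein-coding genes, 1.58% had a ratio at or above that of ID2. The locus also holds the symbol AC011747.7, whose 2 rows stood at 0.587 RPKM with MA4-022-1 against 2.44 RPKM with DMSO and at 1.19 RPKM against 0.938 RPKM. ID2 stood above both rows in each library.

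ID3 (chromosome 1, 23884408 to 23886285) had 0.574 RPKM with MA4-022-1 and 1.34 RPKM with DMSO, a log2 ratio of -0.57. About 12 and 38 reads gave an RPKM ratio of 0.430 with an interval from 0.205 to 0.841. ID1 (chromosome 20, 30193085 to 30194318) had 0.760 RPKM with MA4-022-1 and 0.976 RPKM with DMSO, and about 12 and 21 reads gave a ratio of 0.779 with an interval from 0.349 to 1.66. For ID1 a difference was not detectable at this depth. The 3 ID genes summed to 17.1 RPKM with MA4-022-1 and 7.68 RPKM with DMSO, and ID2 made up 92.2% of that sum with MA4-022-1 and 69.9% with DMSO.

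By summed rows, the 5 genes that reached 5 RPKM in a library were TGFB1, PMEPA1, SKI, SKIL and ID2, and SKI and ID2 were higher and PMEPA1 and TGFB1 lower by 2-fold or more, TGFB1 reaching both that level and that difference only through its plus-block row. Among protein-coding genes at that level, 4.07% were higher and 9.99% lower by 2-fold or more. The 5 under 5 RPKM in both libraries, BMP7, SMAD6, SMAD7, ID1 and ID3, had log2 ratios between -0.88 and -0.17, and the 4 of them that were expressed lay within 2-fold. Among expressed protein-coding genes under 5 RPKM in both libraries, 4.30% were higher and 7.62% lower by 2-fold or more. With a pseudocount of 0.1 in place of 1, BMP7, SMAD6 and ID3 passed 2-fold at log2 ratios of -1.22, -1.28 and -1.09.

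**Figure D3:**
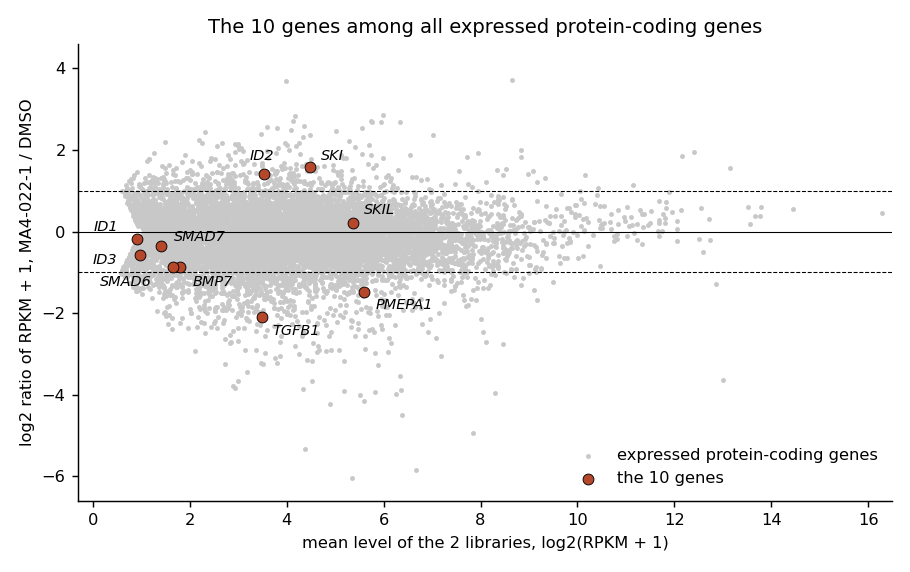
Log2 ratio of RPKM + 1 (vertical, MA4-022-1 over DMSO) against the mean level of both libraries, log2(RPKM + 1), for 9826 expressed protein-coding genes (grey) and the 10 genes (red). Dashed lines mark 2-fold. SKI at 1.59 and ID2 at 1.40 lie above the upper line, and PMEPA1 at -1.49 and TGFB1, with its rows summed, at -2.09 lie below the lower one.

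Around these genes, 9 lists of the wider pathway held 122 other genes, of which 118 had a row of their own and 63 were expressed. Of the 63, 6 were higher and 5 lower by 2-fold or more, shares of 9.52% and 7.94%, and their median log2 ratio was 0.00. Beside the shares of all expressed protein-coding genes, 4.12% higher and 9.51% lower, the share higher was larger and the share lower was smaller. The counts of 6 and 5 are small and the difference in shares was not tested. The other 52 of the 63 lay within 2-fold.

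Of 12 other TGF-beta and activin ligands, 3 were expressed. GDF15, a stress-induced ligand of the family, was by far the most abundant, at 260 RPKM with MA4-022-1 and 564 RPKM with DMSO, or 2.17-fold lower. INHBB, an activin subunit, had 0.819 RPKM with MA4-022-1 and 2.88 RPKM with DMSO, and GDF11 had 4.25 RPKM with MA4-022-1 and 1.46 RPKM with DMSO. Of 13 BMP and GDF ligands, 2 were expressed, both within 2-fold on the scale of RPKM + 1. BMP8B had 3.48 RPKM with MA4-022-1 and 1.60 RPKM with DMSO, a plain RPKM ratio of 2.18. GDF9 had 2.02 RPKM with MA4-022-1 and 3.17 RPKM with DMSO, a plain ratio of 0.635. Few BMP ligands other than BMP7 were therefore expressed.

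Of 18 receptors and coreceptors, 10 were expressed, 1 past 2-fold in each direction on the scale of RPKM + 1. TGFBR3, the coreceptor betaglycan, stood at 7.63 RPKM with MA4-022-1 and 2.15 RPKM with DMSO, or 2.74-fold higher. BMPR1B, a type I receptor for BMPs, stood at 12.7 RPKM with MA4-022-1 and 33.1 RPKM with DMSO, or 2.48-fold lower. The type I receptor TGFBR1 was level at 10.7 RPKM with MA4-022-1 and 10.6 RPKM with DMSO, while its type II partner TGFBR2 was near 0 at 0.148 RPKM with MA4-022-1 and 0.0834 RPKM with DMSO. The BMP type II receptor BMPR2 was at 9.26 RPKM with MA4-022-1 and 6.28 RPKM with DMSO. ACVR1C, within 2-fold on the scale of RPKM + 1, had 1.07 RPKM with MA4-022-1 and 0.0867 RPKM with DMSO. From about 31 and 3 reads, its plain RPKM ratio was 12.3, with a counting interval from 4.39 to 72.

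The SMADs that carry the signal lay within 2-fold on the scale of RPKM + 1, all 5 with rows of their own. SMAD3 had 2.05 RPKM with MA4-022-1 and 0.921 RPKM with DMSO, from about 20 and 12 reads. Its plain RPKM ratio was 2.22, with a counting interval from 1.06 to 5.1. Both rest on the median length of its annotated transcripts for the reads and the interval, and a longer transcript would give more reads and a narrower interval. SMAD2 had 77.5 RPKM with MA4-022-1 and 101 RPKM with DMSO, and SMAD5, of the BMP branch, had 68.8 RPKM with MA4-022-1 and 60.1 RPKM with DMSO. SMAD4 was read in a row joined with ELAC1, at 56.1 RPKM with MA4-022-1 and 34.4 RPKM with DMSO, and that value cannot be split between them.

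Of 21 genes of latency, activation and extracellular antagonism, 11 were expressed. THBS1, thrombospondin, which can activate latent TGF-beta, stood at 12.4 RPKM with MA4-022-1 and 54.5 RPKM with DMSO, or 4.14-fold lower. ITGAV, the alpha-v integrin subunit that also takes part in activation, stood at 55.4 RPKM with MA4-022-1 and 23.4 RPKM with DMSO, or 2.31-fold higher. The other 9 lay within 2-fold on the scale of RPKM + 1. By plain RPKM ratio, the only ones of them past 2-fold were LRRC32 and BMP1. LRRC32 had 0.0501 RPKM with MA4-022-1 and 1 RPKM with DMSO, from about 3 and 88 reads. Its ratio was 0.0499, with a counting interval from 0.0094 to 0.14. BMP1 had 0.906 RPKM with MA4-022-1 and 1.91 RPKM with DMSO, a ratio of 0.473. Of 18 intracellular regulators, 16 were expressed with a row of their own and 1 passed 2-fold. This was NEDD4L, a ubiquitin ligase for activated SMADs, at 295 RPKM with MA4-022-1 and 131 RPKM with DMSO, or 2.24-fold higher.

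Other targets did not share 1 direction. Of 16 other TGF-beta targets 8 were expressed, with 2 past 2-fold higher and 0 past 2-fold lower. COL1A1, a collagen chain, stood at 5.03 RPKM with MA4-022-1 and 1.19 RPKM with DMSO, while the fibroblast gene COL1A2 was near 0, at 0.0183 RPKM with MA4-022-1 and 0.00707 RPKM with DMSO, and COL3A1 was at 0 RPKM with MA4-022-1 and 0.0398 RPKM with DMSO. Whether other cells contribute to COL1A1 was not tested. CDKN2B, an inhibitor of cyclin-dependent kinases, had 2.96 RPKM with MA4-022-1 and 0.721 RPKM with DMSO. Among the other expressed TGF-beta targets, JUNB, TSC22D1 and ANGPTL4 were higher and FN1, KLF10 and BHLHE40 lower. All of these lay within 2-fold on the scale of RPKM + 1. TSC22D1 had 104 RPKM with MA4-022-1 and 79.8 RPKM with DMSO, and FN1 had 22.6 RPKM against 38.8 RPKM. KLF10 had 1.27 RPKM with MA4-022-1 and 3.02 RPKM with DMSO, a plain ratio of 0.42. Of 12 other BMP targets 5 were expressed, and all 5 lay within 2-fold. The most abundant were GATA2, at 22.7 RPKM with MA4-022-1 and 20.9 RPKM with DMSO, and BAMBI, a decoy receptor, at 10 RPKM with MA4-022-1 and 6.53 RPKM with DMSO. MSX1, MSX2 and SMAD9 were lower, at plain RPKM ratios of 0.566, 0.561 and 0.76. The median log2 ratio of the expressed BMP targets was -0.29.

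Of 10 basic helix-loop-helix genes, among them the E proteins that ID proteins bind, 5 were expressed. The E protein TCF3 had 20.8 RPKM with MA4-022-1 and 33.2 RPKM with DMSO, and TCF12 had 30.0 RPKM with MA4-022-1 and 36.7 RPKM with DMSO, both within 2-fold. HES1, a transcriptional repressor that acts downstream of Notch, stood at 5.71 RPKM with MA4-022-1 and 13.4 RPKM with DMSO, or 2.15-fold lower. ID4, the remaining ID gene, was near 0, at 0.0469 RPKM with MA4-022-1 and 0.0688 RPKM with DMSO.

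**Figure D4:**
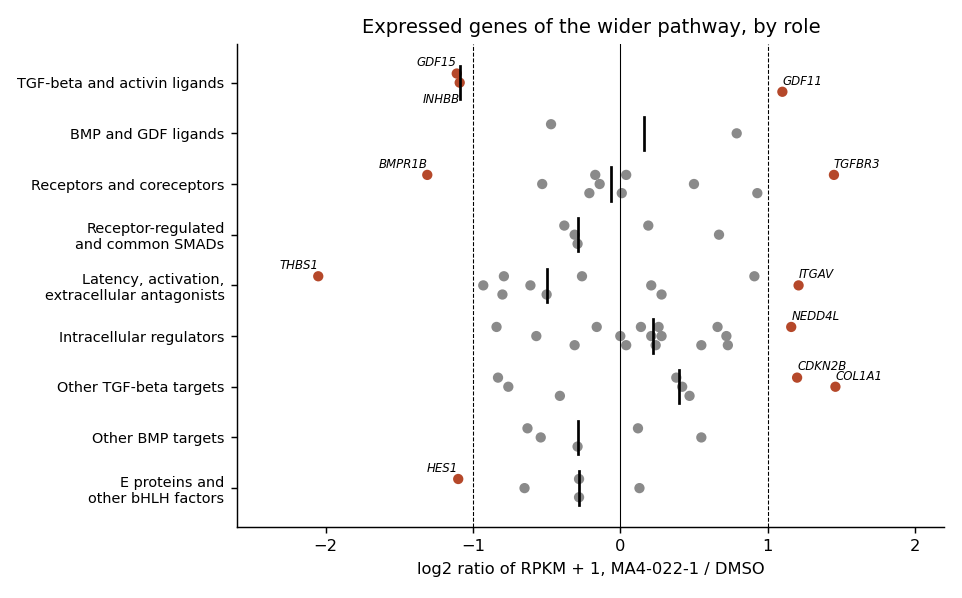
Log2 ratio of RPKM + 1, MA4-022-1 over DMSO, for each expressed gene of the 9 wider lists, with the median of each list as a black bar and 2-fold as dashed lines. Named genes in red lie beyond 2-fold. THBS1 has the lowest ratio, and TGFBR3 and COL1A1 the highest.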

How the data were processed

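Total RNA of 1 MA4-022-1 library and 1 DMSO library was depleted of ribosomal RNA and read as single 50 bp reads, per the labels' protocols. The authors deposited RPKM per gene row on hg19, and the submitters' processing notes name TopHat2 2.0.13 and Cufflinks 2.2.1. RPKM are not counts, so no count test was run, and 1 library per group allows no test. Each table held 62271 rows. The 2751 rows with no symbol and the short RNAs were left out, and joined rows kept their joint name.

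The measure was log2((RPKM + 1) with MA4-022-1 / (RPKM + 1) with DMSO), with 1 RPKM in at least 1 library for expression and a 2-fold threshold. Depth was fitted from the spacing of values in lone processed pseudogenes between 600 and 6000 nt long, where 161 of 185 values of up to 5 reads lay within 2% of a whole read with MA4-022-1 and 211 of 241 with DMSO. Lengths, gene types and strands came from GENCODE release 29 by symbol, without its coordinates. For the members, reads were estimated on the row of the gene's own strand. An annotated length that made both values whole within 0.3% was used where their reads were few, and otherwise the median of protein-coding transcripts. For the wider lists, the rows of a symbol were summed and the median length was used throughout. Intervals are exact conditional binomial. The tables run through each chromosome in 2 blocks, and 95.7% and 95.9% of single-row symbols lay on the strand of their block, plus and minus.

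The members and lists were chosen with earlier results of these data known. All 10 members were named, and of each wider list every gene past 2-fold with at least 5 RPKM, up to 6, or else the 2 most abundant. INHBB, GDF11, CDKN2B, TGFBR1, TGFBR2, BMPR2, SMAD4, TCF3, TCF12, ID4 and the neighbours of TGFB1 and ID2 were named after their values were seen. The same holds for LRRC32, BMP1, SMAD3, ACVR1C, JUNB, TSC22D1, ANGPTL4, FN1, KLF10, BHLHE40, MSX1, MSX2 and SMAD9. The depth fit and the counting of genes past the threshold were tested on simulated data. Python 3.11.15, numpy 2.4.6, pandas 2.3.3, scipy 1.17.1 and matplotlib 3.10.9 were used.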

Additional observations from a re-analysis of the deposited data

How the results depend on the processing

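SKI and ID2 stayed at least 2-fold higher and PMEPA1 at least 2-fold lower under all 9 alternatives run on single genes. These include the rows of the gene's own strand, an alternative chosen after seeing the data. The count of genes at least 2-fold lower was 1 on own-strand rows, where TGFB1 was at -0.67, 5 with a pseudocount of 0.1 and 4 with a 1.5-fold threshold, against 2 as reported. The median of the expressed genes was -1.09 with a pseudocount of 0.1, which weighs low levels more, and 0.21 with a filter of 5 RPKM, which keeps 5 of the 10 genes. Wider pathway genes at least 2-fold lower numbered 8 with a pseudocount of 0.1, 3 with one of 5 and 14 at 1.5-fold, against 5, and those higher numbered 9 with a pseudocount of 0.1, 2 with one of 5 and 13 at 1.5-fold, against 6. For 9 of the 10 genes no sign turned in the 8 or 9 alternatives each was run under, and ID1, below the filter, was run without it alone. With 1 library per group no replicate could be left out. No paired analysis was possible because each group holds 1 library. Low read numbers limit TGFB1, SMAD7, ID1 and ID3.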
